A study of Mus musculus with 9 samples.

Results

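Adenylate cyclases, cyclic nucleotide phosphodiesterases, the subunits of protein kinase A and the A-kinase anchoring proteins were described together in fibroblasts before and after reprogramming toward muscle. They were chosen by name, as the protein-coding genes whose symbols are Adcy, Pde, Prkac, Prkar or Akap followed by the family's numbering. The rule gave 54 genes of the 21959 protein-coding genes in the data (35675 genes in all): 10 cyclases, 22 phosphodiesterases, 2 catalytic and 4 regulatory subunits of protein kinase A, and 16 anchoring proteins. No expression value entered the rule, although earlier results of these data were known. Polyadenylated RNA was sequenced from 9 libraries of mouse embryonic fibroblasts (MEF), all of the Dmdmdx genotype, a dystrophin-deficient model of Duchenne muscular dystrophy. There were 3 libraries of untreated MEFs, 3 of MEFs given MyoD (the transcription factor that starts the skeletal muscle programme, encoded by Myod1), and 3 of MEFs given MyoD together with F/R/C. The labels do not spell out F/R/C. In the published protocol that uses MyoD with the same letters they stand for forskolin, which activates adenylate cyclases directly, RepSox, an inhibitor of the TGF-beta receptor kinase, and a glycogen synthase kinase inhibitor of the CHIR series. How MyoD was delivered, the doses and the time of collection are not given in the sources used here, and nothing in the labels says that libraries of 1 group are separate cultures.

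Adenylate cyclases make cyclic AMP (cAMP) when hormone receptors act on them through the stimulatory G protein Gs. In the absence of cAMP, regulatory subunits hold the catalytic subunits of protein kinase A inactive, and cAMP binding frees them to phosphorylate their targets. Phosphodiesterases degrade cAMP, cGMP or both, and anchoring proteins tether the kinase near its substrates and often near a phosphodiesterase. In skeletal muscle the pathway is known for its part in the response to adrenaline, in glycogen breakdown and in the phosphorylation of calcium-handling proteins.

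For 1 gene across libraries the level is the CPM, its count over the library's scaled total, and for comparisons between genes it is the TPM, which takes transcript length into account. The libraries held 21112071 to 24291056 estimated counts, and the limit taken for a count of 0, which is 3 counts, was 0.113 to 0.144 CPM. Myod1 stood at 2.6, 0.403 and 6 CPM in MEF replicates 1 to 3, at 7.21, 9.03 and 19 CPM in the MyoD libraries and at 269, 281 and 330 CPM in the F/R/C libraries. The third MEF library stood apart from its group: its 22 skeletal muscle markers summed to 720 CPM, against 8.28 and 10.6 CPM in the other 2. The same sum was 1446, 1696 and 4207 CPM with MyoD and 44146, 47034 and 62799 CPM with F/R/C, while 12 fibroblast markers summed to 19054 to 82861, 8117 to 34794 and 5644 to 8453 CPM in the 3 groups. Of the fibroblast sum in MEF replicate 1, 28485 CPM were Col1a1, a collagen. Of the 12 genes, 5 were called lower and 0 higher against MEF and 2 lower and 0 higher against MyoD, with log2 fold changes of -4.58 to 0.81 and -2.14 to 2.18. Markers of macrophages (2.5 to 7.68 CPM summed over 7 genes, with Aif1 at or under 3 counts in every library) and of endothelium (1.34 to 3.15 CPM over 6 genes, with Tie1 likewise) were near 0. Markers of smooth muscle and pericytes summed to 758 to 2393 CPM over 10 genes, of neural cells to 26.4 to 157 CPM over 9, of adipocytes to 8.79 to 79.3 CPM over 6 and of heart to 11.7 to 53.4 CPM over 8. Myog, which encodes the myogenic factor myogenin, was at 19.1 CPM in the third MEF library and at 18.4 CPM in MyoD replicate 1, so that those libraries overlapped in this marker despite their labels. In bulk RNA, fewer cells of a type and less RNA per cell cannot be told apart, so each level below is an average over whatever mixture a library held. For the tested genes of these families, calls that changed without 1 library are given with and without it.

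Of the 54 genes, 45 passed the filter on low counts and were tested. The other 9 were Adcy10, Akap3, Akap4, Akap14, Pde4c, Pde6a, Pde6b, Pde6c and Pde11a; their highest level in any library was 0.755 CPM (Pde11a in F/R/C replicate 1), and 7 of them had 3 counts or fewer in every library. A gene was called where the edgeR quasi-likelihood F test, with p-values adjusted over all 15714 tested genes by Benjamini and Hochberg, gave an adjusted p under 0.05. Between F/R/C and MEF, 8 of the 45 genes were called higher and 7 lower, which is 33.3%; over all tested genes 37.6% were called, 19.5% higher and 18.1% lower. Between F/R/C and MyoD, 7 were called higher and 6 lower, which is 28.9%, beside 33.9% of all tested genes (17.8% higher and 16.1% lower). The called share was therefore near that of the whole transcriptome, and slightly under it, in both comparisons. The median log2 fold change of the 45 genes was 0.03 against MEF, beside -0.04 over all tested genes, and -0.04 against MyoD, beside -0.02. Libraries of the compared groups did not overlap in CPM for 20 genes against MEF (44.4%, beside 53.2% of all tested genes) and for 18 against MyoD (40%, beside 49.8%). Both comparisons use the same F/R/C libraries and are given side by side. Adcy1, Akap5, Akap6, Akap13 and Prkaca were called higher in both, and Adcy3, Adcy4, Adcy7, Adcy8 and Pde1a lower in both. In all, 18 genes were called in at least 1 comparison and 27 in none.

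**Figure D1:**
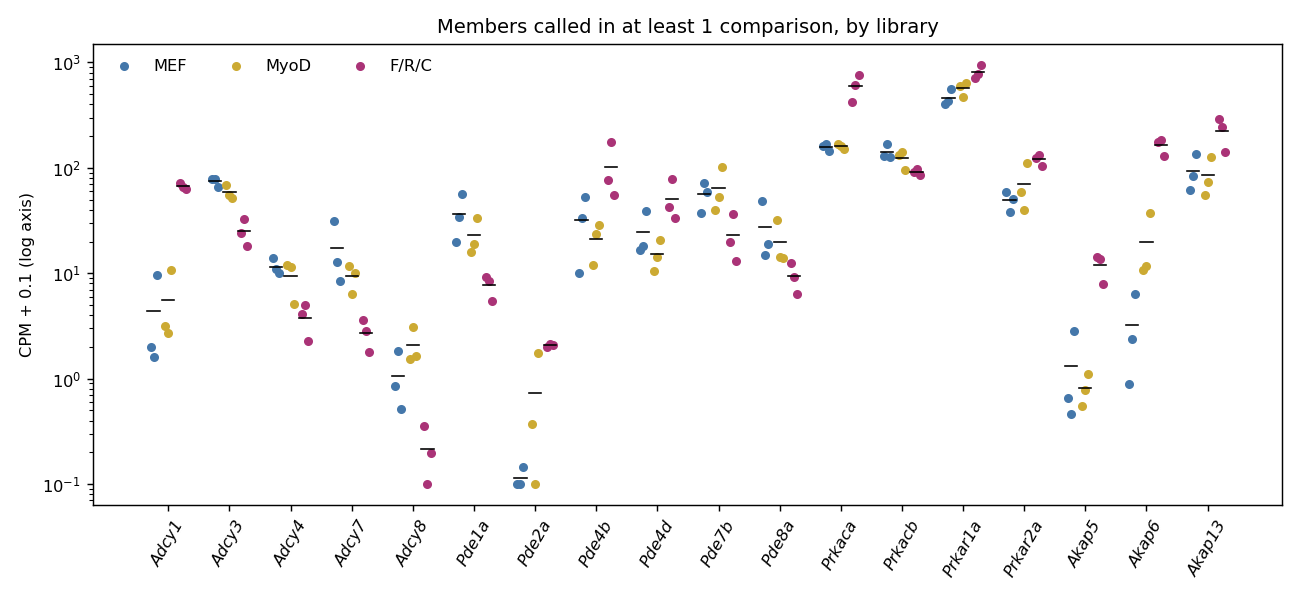
Level of each of the 18 called genes in every library, as CPM plus 0.1 on a log axis; each point is 1 library, each short bar the mean of 3, and colours mark MEF, MyoD and F/R/C. Prkaca, Adcy1, Akap5 and Akap6 lie higher in the 3 F/R/C libraries than in any other library, and Adcy3 and Adcy7 lower.

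With MyoD alone, none of the 45 genes was called (0% of all tested genes were, by the same test, which does not pair libraries). At an unadjusted p under 0.05 there were 2, Akap6 and Pde2a, as against 732 of all 15714 genes, and DESeq2 called 1 (Akap6). Akap6 was at 0.791, 2.29 and 6.23 CPM in MEF and at 10.6, 11.6 and 36.9 CPM with MyoD, so the groups did not overlap, which held for 1 of the 45 genes (beside 7.52% of all tested genes). Its log2 fold change was 2.67 ± 0.73 (SE), with an adjusted p of 0.541 in edgeR and 0.0238 in DESeq2. Equal replicate numbers of MEF and MyoD varied together (correlations of 0.632 to 0.729). When edgeR took these pairs into account, 13 of all 15714 genes were called, all higher, and none of the 45. The adjusted p of Akap6 in that edgeR fit was 0.187. Without the third MEF and the third MyoD library, left out together after their values were seen, the edgeR adjusted p of Akap6 was 0.0195, and 1.23% of all tested genes were called.

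Among the cyclases, the F/R/C libraries held more Adcy1 and less Adcy3, Adcy4, Adcy7 and Adcy8, so that of 9 tested cyclases 1 was called higher and 4 lower in each comparison. Beside this stand 19.5% higher and 18.1% lower of all tested genes against MEF, and 17.8% and 16.1% against MyoD. Adcy1 encodes a cyclase stimulated by calcium and calmodulin and best known from neurons. It was at 1.91, 1.49 and 9.5 CPM in MEF, at 3.09, 2.61 and 10.7 CPM with MyoD, and at 71.3, 65.5 and 63.2 CPM with F/R/C. The F/R/C libraries lay close together and far above all 6 others, of which the third MEF and the third MyoD library were the highest. Adcy1 had a log2 fold change of 3.96 ± 0.82 against MEF (edgeR adjusted p = 0.00655) and 3.61 ± 0.81 against MyoD (adjusted p = 0.0106), and both calls held with any 1 library left out.

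Adcy3, a widely expressed cyclase, was the second most abundant in MEF. It was at 78.3, 78.8 and 66.4 CPM in MEF, at 68.7, 55.7 and 51.4 CPM with MyoD and at 24, 32.6 and 18.1 CPM with F/R/C. Every F/R/C library was lower than every other library, and the log2 fold change was -1.58 ± 0.24 against MEF (edgeR adjusted p = 0.00166) and -1.23 ± 0.23 against MyoD (adjusted p = 0.0056); neither call depended on a single library. Adcy4 and Adcy7 encode cyclases that G protein beta-gamma subunits can stimulate. Adcy7 was at 31.2, 12.6 and 8.26 CPM in MEF, at 11.5, 6.19 and 10 CPM with MyoD and at 3.48, 2.74 and 1.68 CPM with F/R/C, with log2 fold changes of -2.72 ± 0.54 (adjusted p = 0.00558) and -1.81 ± 0.53 (adjusted p = 0.0294). Adcy4 was at 13.7, 10.8 and 9.87 CPM in MEF, at 11.9, 11.3 and 5.05 CPM with MyoD and at 3.99, 4.92 and 2.16 CPM with F/R/C, with log2 fold changes of -1.63 ± 0.42 (adjusted p = 0.0158) and -1.35 ± 0.42 (adjusted p = 0.0357). For both genes the F/R/C libraries lay under all others, although for Adcy4 the third MyoD library (5.05 CPM) came close to F/R/C replicate 2 (4.92 CPM). The calls against MEF held with any 1 library left out. The call of Adcy7 against MyoD ended without any 1 of MyoD replicates 1 and 3 and F/R/C replicates 2 and 3 (adjusted p = 0.0528 to 0.0982). The call of Adcy4 against MyoD ended without any 1 of MyoD replicates 1 and 2 and F/R/C replicates 1 and 3 (adjusted p = 0.0791 to 0.107), on counts rebuilt from TPM (adjusted p = 0.078) and with the 2 groups fitted alone (adjusted p = 0.0528).

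Adcy8, another calcium-stimulated cyclase, was rare everywhere. It was at 0.744, 1.73 and 0.415 CPM in MEF, at 1.43, 2.98 and 1.54 CPM with MyoD and at 0.252, 0 and 0.096 CPM with F/R/C, where the last 2 values are under the limit that 3 counts set. Adcy8 had a log2 fold change of -2.98 ± 0.93 against MEF (edgeR adjusted p = 0.0337) and -4.01 ± 0.94 against MyoD (adjusted p = 0.0125). The call against MEF ended without any 1 of MEF replicate 2 and F/R/C replicates 2 and 3 (adjusted p = 0.0667 to 0.111) and on protein-coding transcripts alone (adjusted p = 0.0509), and the call against MyoD without F/R/C replicate 3 (adjusted p = 0.0532). The 4 tested cyclases that were not called in either comparison were Adcy2, Adcy5, Adcy6 and Adcy9. Adcy9 passed the threshold against MEF only without F/R/C replicate 3 (edgeR adjusted p = 0.0235). Adcy6, a cyclase inhibited by calcium and the most abundant in all 3 groups, was at 155 to 203 CPM in MEF, 159 to 202 CPM with MyoD and 92.5 to 137 CPM with F/R/C. Its F/R/C libraries were all lower than the others, but with log2 fold changes of -0.55 ± 0.21 and -0.53 ± 0.21 it missed the threshold (adjusted p = 0.0709 and 0.0846). On counts rebuilt from TPM, which carry the transcript length, Adcy6 passed it in both comparisons (adjusted p = 0.0347 and 0.0323).

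Per transcript length, the cyclases together came to 128 ± 11 TPM in MEF, 120 ± 4.11 TPM with MyoD and 72.8 ± 25.4 TPM with F/R/C (SD, n = 3 each). The summed counts differed less, at 334 ± 35.9, 307 ± 36.2 and 265 ± 56.1 CPM. Within the family, Adcy6 made up 48.9% ± 2, 53.3% ± 1.03 and 47.7% ± 3.88 of cyclase TPM in the 3 groups. The F/R/C libraries (44.8% to 52.1%) overlapped both others, while the MEF libraries (46.8% to 50.7%) lay under the MyoD libraries (52.1% to 54%). The share of Adcy3 was 26% ± 3.78 in MEF and 14.1% ± 2.83 with F/R/C, and that of Adcy1 was 0.7% ± 0.65 in MEF, 0.9% ± 0.534 with MyoD and 15.1% ± 3.41 with F/R/C. In the F/R/C libraries Adcy1, at 10.4 TPM (8.25 to 12.4), was thus as abundant as Adcy3 at 10.7 TPM (5.1 to 15.4), and these neighbours in the order did not differ beyond their spread. In MEF, Adcy1 had been the eighth of 10.

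**Figure D2:**
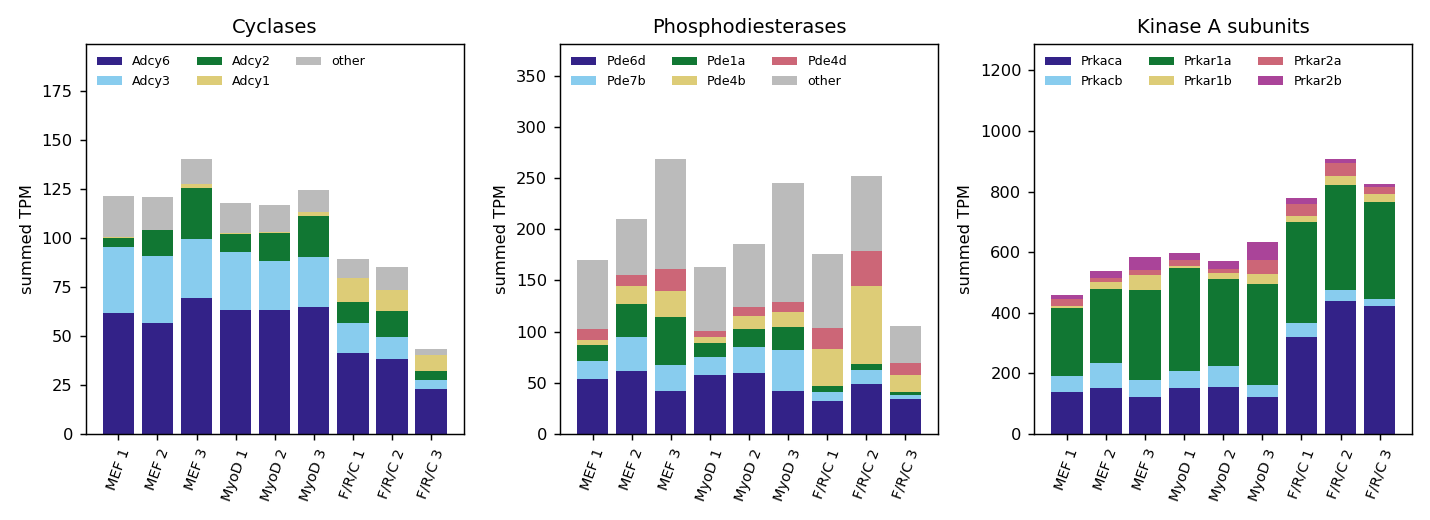
Summed TPM per library (1 stacked bar each) of the cyclases, the phosphodiesterases and the protein kinase A subunits, split by gene. The Prkaca part of the kinase bars is larger in all 3 F/R/C libraries (319 to 440 TPM) than in the 6 others, and F/R/C replicate 3 has the lowest cyclase and phosphodiesterase bars.

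Among 17 tested phosphodiesterases, the F/R/C libraries held less Pde1a in both comparisons and more Pde4b and Pde4d than the MyoD libraries. Against MEF, 1 was called higher (Pde2a) and 2 lower (Pde1a and Pde8a). Against MyoD, 2 were called higher (Pde4b and Pde4d) and 2 lower (Pde1a and Pde7b). Of all tested genes, 19.5% were called higher and 18.1% lower against MEF, and 17.8% and 16.1% against MyoD. Pde1a encodes an enzyme that calcium and calmodulin switch on and that degrades cGMP and cAMP. It was at 19.7, 34.3 and 55.9 CPM in MEF, at 15.8, 18.8 and 33.6 CPM with MyoD and at 9.11, 8.34 and 5.33 CPM with F/R/C. The F/R/C libraries lay under all others, and the log2 fold change was -2.27 ± 0.45 against MEF (edgeR adjusted p = 0.00511) and -1.58 ± 0.44 against MyoD (adjusted p = 0.0236). The first call held with any 1 library left out, and the second ended without any 1 of MyoD replicate 3 and F/R/C replicates 2 and 3 (adjusted p = 0.0594 to 0.0831).

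Pde4b and Pde4d encode cAMP-specific enzymes, whose genes are themselves known targets of cAMP signalling in many cell types. Pde4b was at 9.95, 33.3 and 52.3 CPM in MEF, at 11.9, 23.3 and 28.5 CPM with MyoD and at 77, 174 and 55.5 CPM with F/R/C. Pde4d was at 16.4, 18.1 and 38.5 CPM in MEF, at 10.5, 14.2 and 20.5 CPM with MyoD and at 42.3, 77.8 and 33.1 CPM with F/R/C. Both were highest in F/R/C replicate 2. There the adipocyte markers summed to 63.6 CPM, against 12 and 8.79 CPM in F/R/C replicates 1 and 3. The adipocyte sum was larger in MEF replicate 1 and MyoD replicate 1 (79.3 and 65.6 CPM), where both genes were lowest in their groups. The part of adipocytes was not tested. For Pde4d the third MEF library lay above the third F/R/C library. The log2 fold changes against MyoD were 2.27 ± 0.65 for Pde4b (edgeR adjusted p = 0.0273) and 1.76 ± 0.45 for Pde4d (adjusted p = 0.0175). Both calls ended without either of MyoD replicates 1 and 2 or without F/R/C replicate 2 (adjusted p = 0.0779 to 0.0937 for Pde4b and 0.0611 to 0.0657 for Pde4d). Against MEF neither passed, at 1.68 ± 0.64 (adjusted p = 0.0663) and 1.07 ± 0.44 (adjusted p = 0.0867). Without MEF replicate 3 both did (adjusted p = 0.0401 and 0.0269), and with the replicate number as a block Pde4b did (adjusted p = 0.0238). The blocked fit also called Pde4a lower against MEF (adjusted p = 0.0319), another cAMP-specific enzyme, at 16.8 to 20.7 CPM in MEF and 8.31 to 15.6 CPM with F/R/C. The Pde4 genes made up 17.3% ± 3.59 of phosphodiesterase TPM in MEF, 13.7% ± 3.52 with MyoD and 36.4% ± 8.78 with F/R/C, and in every F/R/C library this share (28.7% to 46%) was above that of every other library.

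Pde2a, a phosphodiesterase of both nucleotides that cGMP stimulates, had 1 count over the 3 MEF libraries and was at 1.89, 2.05 and 1.97 CPM with F/R/C. The ratio of counts per effective library size was 134, with an exact 95% counting interval of 23.6 to 5325. On counts rebuilt from TPM the log2 fold change against MEF was 3.20, beside a fitted value of 6.60 on the counts, which depends on the prior count. In TPM the MEF libraries were at 0.00138, 0.095 and 0.191 and the F/R/C libraries at 0.924, 0.795 and 0.572. The MyoD libraries were spread over the range, at 0.269, 0 and 1.64 CPM. The call against MEF (edgeR adjusted p = 0.0134) ended without MEF replicate 2 (adjusted p = 0.0524), on protein-coding transcripts alone (adjusted p = 0.101) and on counts rebuilt from TPM (adjusted p = 0.0813). Against MyoD it was not called (adjusted p = 0.283), but it was without MyoD replicate 3 (adjusted p = 0.0319).

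Pde7b and Pde8a encode cAMP-specific enzymes of high affinity. Pde7b was at 36.9, 72.1 and 58.5 CPM in MEF, at 39.9, 52.9 and 101 CPM with MyoD and at 19.5, 36.2 and 13.1 CPM with F/R/C. The F/R/C libraries were under all 6 others, by a small margin for replicate 2. The log2 fold change was -1.50 ± 0.47 against MyoD (edgeR adjusted p = 0.0372), a call that ended without any 1 of MyoD replicates 2 and 3 and F/R/C replicates 1 and 3 (adjusted p = 0.0587 to 0.115). Against MEF it was -1.28 ± 0.47 (adjusted p = 0.0577), which passed with DESeq2 (adjusted p = 0.0416), with the replicate block (adjusted p = 0.0446), with scaling by total counts (adjusted p = 0.0486) and on counts rebuilt from TPM (adjusted p = 0.0475). It also passed without MEF replicate 1, MyoD replicate 3 or F/R/C replicate 2 (adjusted p = 0.0291 to 0.0435). Pde8a was at 48, 14.7 and 19 CPM in MEF, at 31.6, 14.3 and 13.7 CPM with MyoD and at 12.5, 9.12 and 6.19 CPM with F/R/C. Its F/R/C libraries were again the lowest, with a log2 fold change of -1.55 ± 0.53 against MEF (adjusted p = 0.047). That call ended without MEF replicate 1, MyoD replicate 2 or any 1 F/R/C library (adjusted p = 0.0599 to 0.158), on counts rebuilt from TPM (adjusted p = 0.0605), with DESeq2 size factors (adjusted p = 0.0506) and with the 2 groups fitted alone (adjusted p = 0.0502).

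The 11 phosphodiesterases tested and called in no comparison included Pde6d, a prenyl-binding protein named as a subunit of the photoreceptor enzyme. Pde6d was the most abundant of the family per length in MEF (52.4 TPM, 41.9 to 61.5) and with MyoD (52.9 TPM, 41.7 to 60). With F/R/C it was second, at 38.6 TPM (32.1 to 49), after Pde4b at 42.8 TPM (16.4 to 75.7), and these 2 overlapped. In CPM, Pde6d differed by less than its spread, at 30.5 ± 5.17, 30.4 ± 3.78 and 29.1 ± 6.91 in the 3 groups. Pde7a, a relative of Pde7b, was at 25.9 ± 7.11 CPM in MEF and 35.8 ± 8.5 CPM with F/R/C, and Pde10a, which degrades both nucleotides, at 31 ± 15.7 and 34.2 ± 18 CPM. Pde9a passed in both comparisons only without MyoD replicate 3 (edgeR adjusted p = 0.0467 against MEF and 0.0319 against MyoD). The summed TPM of the phosphodiesterases was 216 ± 49.5 in MEF, 198 ± 42 with MyoD and 178 ± 73.2 with F/R/C, differences within the spread. This sum, and the total behind the Pde4 share above, include Pde6d, which made up 15.6% to 35% of it by library.

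Of the 6 genes of protein kinase A, 3 were called higher and 1 lower with F/R/C against MEF, and 1, Prkaca, was called higher against MyoD. Over all tested genes, 19.5% were called higher and 18.1% lower against MEF, and 17.8% higher against MyoD. Prkaca, which encodes the main catalytic subunit, was at 161, 169 and 143 CPM in MEF, at 169, 162 and 152 CPM with MyoD and at 422, 611 and 759 CPM with F/R/C. The MEF and MyoD libraries covered one narrow range, and even the lowest F/R/C library was far above it. Its log2 fold change was 1.92 ± 0.24 against MEF (edgeR adjusted p = 0.000773) and 1.89 ± 0.24 against MyoD (adjusted p = 0.00125), 3.79-fold and 3.71-fold. Both calls held with any 1 library left out. Prkacb, the gene of the other catalytic subunit, differed in the opposite direction. It was at 129, 167 and 126 CPM in MEF, at 133, 140 and 96.1 CPM with MyoD and at 92.1, 97.2 and 85.4 CPM with F/R/C. All F/R/C libraries were below all MEF libraries but not below the third MyoD library. The log2 fold change was -0.62 ± 0.20 against MEF (adjusted p = 0.0361), which ended without MEF replicate 2 or any 1 F/R/C library (adjusted p = 0.071 to 0.103), on counts rebuilt from TPM (adjusted p = 0.0669), on protein-coding transcripts alone (adjusted p = 0.0506) and with no filter beyond 1 count (adjusted p = 0.0747). Against MyoD it was -0.42 ± 0.20 (adjusted p = 0.126). Prkaca made up 68.4% ± 3.67 of the catalytic TPM in MEF, 72.5% ± 3.41 with MyoD and 91.8% ± 3.9 with F/R/C.

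Prkar1a, the gene of the most widely expressed regulatory subunit, was at 403, 432 and 555 CPM in MEF, at 602, 471 and 636 CPM with MyoD and at 710, 778 and 946 CPM with F/R/C. The F/R/C libraries were above all others, and the MyoD and MEF libraries overlapped. Prkar1a had a log2 fold change of 0.81 ± 0.23 against MEF (edgeR adjusted p = 0.0235), a call that ended without any 1 of MEF replicates 1 and 2 and F/R/C replicates 2 and 3 (adjusted p = 0.052 to 0.101) and with no filter beyond 1 count (adjusted p = 0.0524). Prkar2a encodes a type II regulatory subunit, the type that most anchoring proteins bind. It was at 59.1, 38.2 and 50.9 CPM in MEF, at 59.1, 39.8 and 110 CPM with MyoD and at 125, 133 and 103 CPM with F/R/C. The third MyoD library reached the F/R/C range, so the groups overlapped there but not against MEF. The log2 fold change against MEF was 1.28 ± 0.35 (adjusted p = 0.0205), which ended without any 1 of MEF replicate 2 and F/R/C replicates 1 and 2 (adjusted p = 0.053 to 0.0807) and on counts rebuilt from TPM (adjusted p = 0.0519). Against MyoD it was not called (adjusted p = 0.11), but it was without MyoD replicate 3 (adjusted p = 0.0114).

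The other regulatory genes were not called. Prkar1b was at 8.93, 28.1 and 63.3 CPM in MEF, at 8.1, 24.2 and 49.5 CPM with MyoD and at 28.7, 47.7 and 52.3 CPM with F/R/C. Prkar2b was at 23.8, 36.8 and 67.9 CPM in MEF, at 33.5, 37 and 109 CPM with MyoD and at 34, 26.2 and 24.8 CPM with F/R/C. Both spread widely within MEF and MyoD, with the third library highest in each. Summed over subunits and per length, the catalytic genes came to 201 ± 28.3, 198 ± 31.4 and 427 ± 56.5 TPM in MEF, MyoD and F/R/C, and the regulatory genes to 325 ± 69.8, 403 ± 64.1 and 409 ± 26.4 TPM. The ratio of catalytic to regulatory TPM was 0.641 ± 0.172 in MEF, 0.507 ± 0.152 with MyoD and 1.05 ± 0.149 with F/R/C. It was 0.879 to 1.16 in the F/R/C libraries and 0.344 to 0.764 in the other 6, so the ranges did not overlap. With 3 libraries against 3, an exact two-sided permutation test of such a sum or ratio cannot give a p under 0.1, and none was run.

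**Figure D3:**
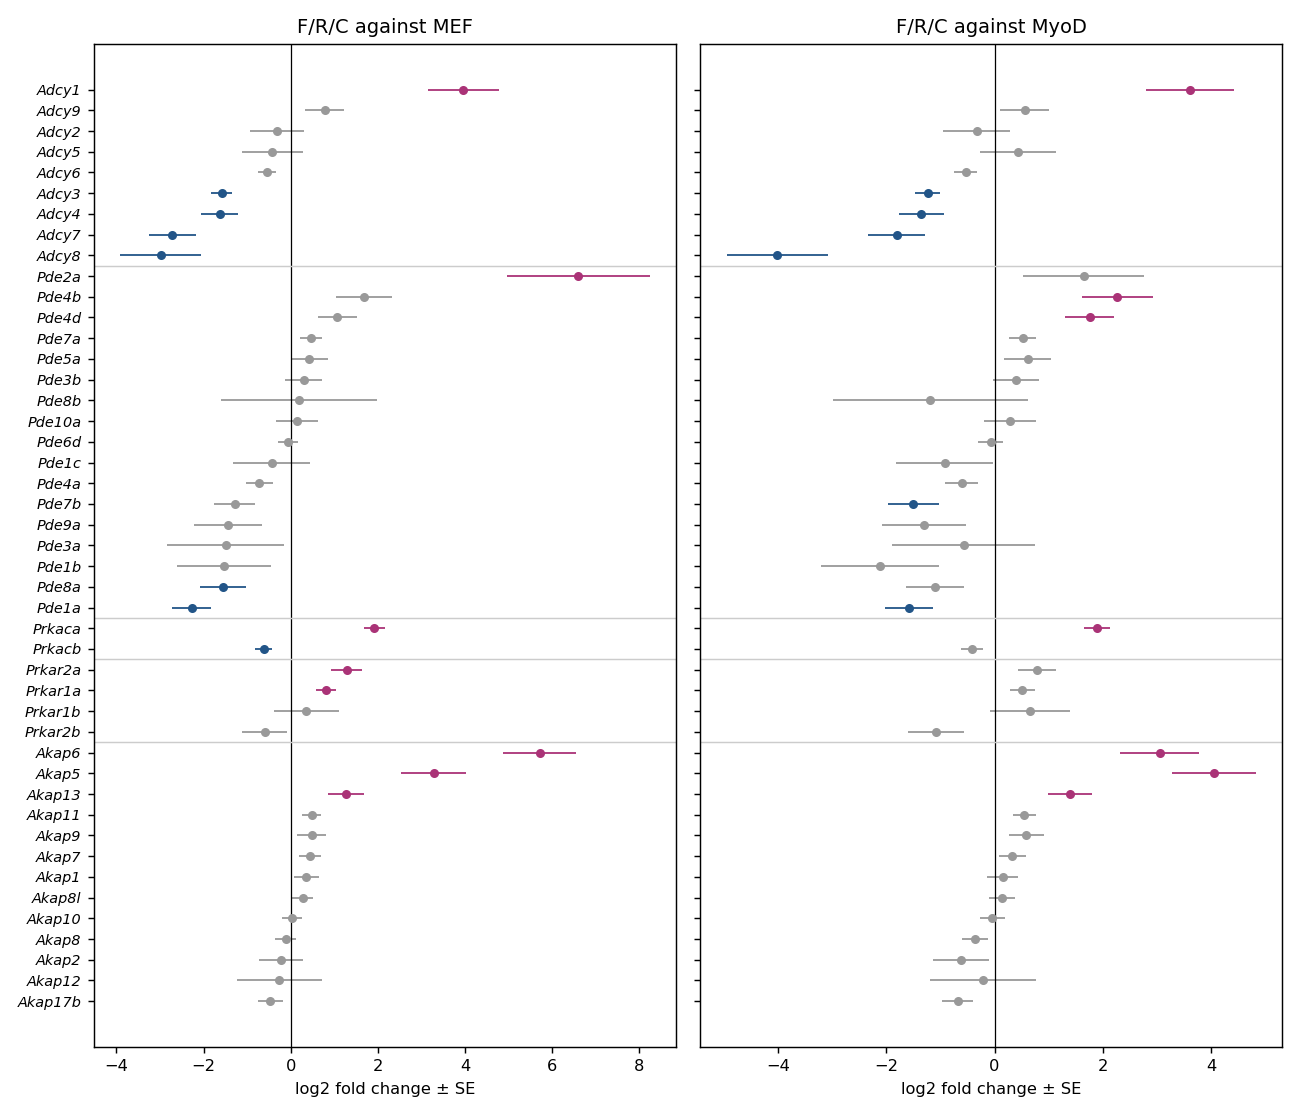
Log2 fold change ± SE of the 45 tested genes, F/R/C against MEF on the left and F/R/C against MyoD on the right, grouped by family; magenta marks genes called higher, blue genes called lower and grey genes not called. Prkaca (1.92 and 1.89) has short error bars, while Pde2a and Pde8b have long ones.

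Among the 13 tested anchoring proteins, Akap5, Akap6 and Akap13 were called higher with F/R/C in both comparisons and none lower. Over all tested genes, 19.5% were called higher and 18.1% lower against MEF, and 17.8% and 16.1% against MyoD. Akap6 encodes muscle AKAP, which sits on the nuclear envelope of muscle cells and holds protein kinase A with a Pde4d enzyme. Its MEF and MyoD values are given above, and the F/R/C libraries were at 176, 184 and 129 CPM, far above all 6. Akap6 had a log2 fold change of 5.71 ± 0.83 against MEF (edgeR adjusted p = 0.00147), or 52.5-fold, which held with any 1 library left out, and 3.05 ± 0.73 against MyoD (adjusted p = 0.0133), which ended without MyoD replicate 2 (adjusted p = 0.0557). Akap6 made up 0.131% ± 0.0788 of anchor TPM in MEF, 0.725% ± 0.435 with MyoD and 6.13% ± 0.994 with F/R/C.

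Akap5 encodes an anchor known for tethering protein kinase A and calcineurin to membrane channels and receptors. It was at 0.558, 0.362 and 2.72 CPM in MEF, at 0.448, 0.68 and 1.01 CPM with MyoD and at 14.2, 13.6 and 7.73 CPM with F/R/C. The groups were well apart, and the highest MEF value was that of the third library. On the log2 scale Akap5 changed by 3.28 ± 0.75 against MEF (edgeR adjusted p = 0.00965) and 4.05 ± 0.78 against MyoD (adjusted p = 0.00598), and both calls held with any 1 library left out. Akap13 encodes a large anchor that also activates the small GTPase RhoA. It was at 61, 83.7 and 134 CPM in MEF, at 55.7, 74 and 126 CPM with MyoD and at 289, 242 and 140 CPM with F/R/C. The third F/R/C library lay only just above the third MEF and MyoD libraries, and in TPM the groups overlapped. On the log2 scale Akap13 changed by 1.27 ± 0.41 against MEF (adjusted p = 0.0394) and 1.39 ± 0.41 against MyoD (adjusted p = 0.0308). The first call ended without any 1 of MEF replicates 1 and 2, MyoD replicate 2 and F/R/C replicates 1 and 2 (adjusted p = 0.0549 to 0.126) and on counts rebuilt from TPM (adjusted p = 0.0671). The second ended without any 1 of MEF replicate 2, MyoD replicates 1 and 2 and F/R/C replicates 1 and 2 (adjusted p = 0.0512 to 0.109).

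The other 10 tested anchors were not called, with log2 fold changes against MEF of -0.47 to 0.48. Without F/R/C replicate 3, Akap11 passed in both comparisons (edgeR adjusted p = 0.0355 against MEF and 0.0307 against MyoD). Without MyoD replicate 3, Akap9 passed against MyoD (adjusted p = 0.0422). The most abundant per length were Akap2 in MEF and MyoD (75.7 TPM, 35.5 to 124, and 94.3 TPM, 49 to 163) and Akap1, a mitochondrial anchor, with F/R/C (51.1 TPM, 26.9 to 66.9). Akap2 with F/R/C was at 50.1 TPM (29.3 to 66.9), so these neighbours did not differ beyond their spread. Akap8, a nuclear anchor, was at 48.4 ± 8.29, 58.5 ± 15.5 and 43 ± 21.6 TPM in the 3 groups. F/R/C replicate 3 had a lower TPM than both other F/R/C libraries for 37 of the 45 tested genes, beside 64.6% of all tested genes; in CPM this held for 31, beside 39.9%.

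The muscle and fibroblast markers were set beside these results. Of the 8 genes called higher against MEF, 6 were highest in replicate 3 among the MEF libraries and 7 in replicate 3 among the MyoD libraries, the libraries with the largest summed muscle markers of their groups (720 and 4207 CPM) and the smallest summed fibroblast markers (19054 and 8117 CPM). Of the 7 genes called lower against MEF, 1 was highest in the third MEF library and 1 in the third MyoD library. The same counts over all called genes were not made, so whether this pattern is particular to these families was not tested. Whether the share of muscle-like cells has a part in these differences was not tested. Without replicate 3 of MEF and of MyoD (left out after their values were seen), 11 genes were called higher and 7 lower against MEF, and 11 higher and 6 lower against MyoD. In that fit 20.7% and 16.9% of all tested genes were called higher and lower against MEF, and 19.3% and 17.1% against MyoD. The call of Pde7b against MyoD ended in it (adjusted p = 0.106).

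Other genes of the pathway were read from 7 lists of 96 genes fixed with earlier results of these data known, and none of the 80 tested was called in the MyoD libraries against MEF by edgeR (8 at an unadjusted p under 0.05, and 1 called by DESeq2). The shares of all tested genes to set beside each list below are 19.5% higher and 18.1% lower against MEF. Against MyoD they are 17.8% and 16.1%. Of 11 genes of G protein alpha subunits and cyclase regulators, 2 were called higher and 2 lower with F/R/C against MEF. Gnas, which encodes the Gs alpha subunit, had a log2 fold change of 1.07 ± 0.21 (edgeR adjusted p = 0.00484; 745 to 815 CPM in MEF and 1535 to 1700 CPM with F/R/C). Cap2, a cyclase-associated protein that binds actin and is abundant in striated muscle, had one of 6.10 ± 1.14 (adjusted p = 0.00407). It was at 1.16, 1.45 and 16.1 CPM in MEF and at 393 to 454 CPM with F/R/C. DESeq2 gave Cap2 no p-value and called 1 gene of this list higher against MEF. Of the inhibitory G protein genes, Gnai2 had a log2 fold change of -0.87 ± 0.18 (adjusted p = 0.00641), and Gnao1, which encodes the related Go alpha subunit, one of -2.06 ± 0.44 (adjusted p = 0.00725). Against MyoD, 2 were called higher and 3 lower.

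Of 22 tested genes of Gs-coupled receptors, 6 were called higher and 3 lower against MEF, and 5 and 2 against MyoD. Adora2a, an adenosine receptor, was at 0.845 to 1.29 CPM in MEF and 7.39 to 11.7 CPM with F/R/C (log2 fold change 3.15 ± 0.38, edgeR adjusted p = 0.000686). Crhr2, a receptor of corticotropin-releasing hormone and urocortins, had no count in the MEF libraries and 106 over the F/R/C libraries. That is at least 36.1-fold higher against 3 counts over the MEF group (edgeR adjusted p = 0.00164). The MyoD libraries held 22, 23 and 12 counts of Crhr2. It was called neither in MyoD against MEF (adjusted p = 0.186) nor in F/R/C against MyoD (adjusted p = 0.243). Vipr1, a receptor of vasoactive intestinal peptide, had 1 count in MEF and 292 with F/R/C, a ratio of 298 with an exact 95% counting interval of 53.1 to 11820 (adjusted p = 0.00128). Ptger4, a prostaglandin E receptor, had a log2 fold change of -2.97 ± 0.53 (adjusted p = 0.00341).

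Of 12 genes of kinase A inhibitors and other cAMP effectors, 5 were called higher and 1 lower in each comparison. Bves and Popdc2, which encode cAMP-binding Popeye proteins of striated muscle, had log2 fold changes against MEF of 4.39 ± 0.41 (edgeR adjusted p = 0.000327) and 6.41 ± 0.95 (adjusted p = 0.0016). Pkig, which encodes an inhibitor of the free catalytic subunits, was at 19.4 to 43 CPM in MEF, at 27 to 48.2 CPM with MyoD and at 139 to 214 CPM with F/R/C (log2 fold change 2.39 ± 0.35, adjusted p = 0.00147). The kinase inhibitor gene and Prkaca were thus higher in the same 3 libraries. Rapgef3, which encodes the cAMP-activated exchange factor Epac, was lower (-1.78 ± 0.36, adjusted p = 0.00578). Of 8 genes of CREB factors and coactivators none was called higher, and 3 coactivator genes were called lower against MEF, Crtc1, Crtc2 and Crtc3, with log2 fold changes of -0.92 ± 0.30, -0.85 ± 0.22 and -0.61 ± 0.19 (adjusted p = 0.0384, 0.0165 and 0.0356). The call of Crtc2 ended without F/R/C replicate 3 (adjusted p = 0.0529). Those of Crtc1 and Crtc3 ended without any 1 of MEF replicates 1 and 2, MyoD replicate 2 and F/R/C replicates 1 and 3, and that of Crtc1 also without F/R/C replicate 2 (adjusted p = 0.0541 to 0.117).

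Of 10 tested genes of cGMP synthesis and its effectors, 2 were called lower in each comparison and none higher: Npr2, a natriuretic peptide receptor that makes cGMP (-1.84 ± 0.25 against MEF, edgeR adjusted p = 0.00115), and Prkg2, a cGMP-dependent kinase (-1.67 ± 0.37, adjusted p = 0.0088). Pde4dip, an anchor of Pde4d also called myomegalin, was called higher (1.86 ± 0.23, adjusted p = 0.000817) among 6 other phosphodiesterase and cAMP export genes, of which Pde6h was called lower (-1.63 ± 0.56, adjusted p = 0.0461). The call of Pde6h was lost with the replicate block (adjusted p = 0.0552) and without any 1 of MEF replicates 2 and 3, MyoD replicates 1 and 2 and all F/R/C replicates (adjusted p = 0.0519 to 0.13). Of 11 kinase A anchors that carry other names, 2 were called higher and 3 lower against MEF. Cmya5, or myospryn, an anchor of striated muscle, had a log2 fold change of 3.53 ± 0.45 (adjusted p = 0.000873), and Rab32, a mitochondrial anchor, one of -4.29 ± 0.44 (adjusted p = 0.00044). Counts in both directions over these lists (16 higher, or 20%, and 15 lower, or 18.8%, of 80 tested against MEF) stand beside the 19.5% and 18.1% of all tested genes.

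Single transcripts were tested in the same way on their estimated counts, 154 of the 381 of these genes. Against MEF, 9 were called higher and 4 lower (over all 44724 tested transcripts 6.71% higher and 4.77% lower, 11.5% in all), and against MyoD 5 higher and 2 lower (4.09% and 3.79% of all, together 7.88%). With MyoD alone none was called, beside 5 called higher of all (0.0112%). No gene had 1 transcript called higher and another lower in the same comparison. Prkaca-201 carried nearly all of the Prkaca TPM, at 121 to 151 TPM in MEF, 123 to 154 TPM with MyoD and 319 to 440 TPM with F/R/C, with log2 fold changes of 2.00 ± 0.25 (edgeR adjusted p = 0.00372) and 1.93 ± 0.25 (adjusted p = 0.00634). Akap6-201 was called against MEF (5.67 ± 0.90, adjusted p = 0.00779). Among the cyclases the smallest adjusted p was that of Adcy9-201 (4.17 ± 0.74, adjusted p = 0.0114), although Adcy9 itself was not called, and without MEF replicate 2 the transcript was not either (adjusted p = 0.0568). Its reads are shared with Adcy9-202, which differs at the 5′ end, so the division between them rests on kallisto's estimate. Pde1a-209 was called lower (-2.38 ± 0.53, adjusted p = 0.0248), a call that was lost with the replicate block (adjusted p = 0.0544) and without any 1 of MEF replicates 2 and 3 and all F/R/C replicates (adjusted p = 0.0623 to 0.0866).

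Prkar1a was the regulatory gene with a called transcript. Prkar1a-203 starts at the upstream first exon of the gene (chromosome 11, 109649405 in GRCm38), and Prkar1a-201 at a downstream one (109650921). Prkar1a-203 was at 40.5, 55.9 and 62.9 TPM in MEF, at 94.1, 75.8 and 75.2 TPM with MyoD and at 115, 124 and 105 TPM with F/R/C. The 3 groups did not overlap in this transcript. Prkar1a-201 was at 174, 181 and 226 TPM in MEF, at 232, 194 and 238 TPM with MyoD and at 210, 217 and 215 TPM with F/R/C, where the groups overlapped. The log2 fold change against MEF was 1.55 ± 0.26 for Prkar1a-203 (edgeR adjusted p = 0.00916, which held with any 1 library left out) and 0.60 ± 0.26 for Prkar1a-201 (adjusted p = 0.199). Against MyoD, Prkar1a-203 was at 0.91 ± 0.25 (adjusted p = 0.0659). The share of Prkar1a-203 in the gene's TPM was 20.8% ± 2.31 in MEF, 25.6% ± 2.56 with MyoD and 34.2% ± 1.57 with F/R/C. The difference in share was not itself tested.

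**Figure D4:**
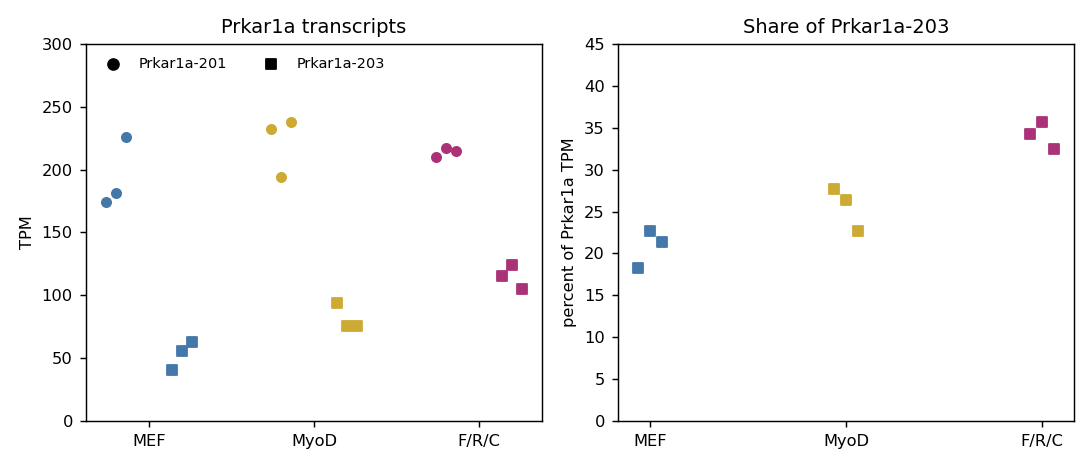
Left, TPM of Prkar1a-201 (circles) and Prkar1a-203 (squares) in each of the 9 libraries, by group; right, Prkar1a-203 as a percent of the TPM of all Prkar1a transcripts. The share is 18.2% to 22.7% in MEF, 22.7% to 27.7% with MyoD and 32.5% to 35.7% with F/R/C.

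The sequence upstream of the start sites was read for the genes of these families. CREB, a target of protein kinase A, binds the cAMP response element TGACGTCA and its shorter core TGACG, and MyoD binds E-boxes such as CAGCTG. Prkaca, Prkar1a, Akap5, Akap13, Akap6 and Adcy1 are described singly below, a selection made without a set rule. Of these, Prkar1a was called higher against MEF only. Pde2a, Pde4b, Pde4d and Prkar2a, also called higher in 1 comparison, are not described singly. RefSeq windows of the 250 bases before each start (GRCm38.p6) matched 44 of the 54 genes, in 86 windows. On either strand, TGACGTCA was found in 1 of the 86 windows (1.16%, beside 1.55% of all 32851 windows), TGACG in 13 (15.1%, beside 17.8%) and CAGCTG in 17 (19.8%, beside 13%). Counted per gene, TGACGTCA was found in 1 of the 44 genes (2.27%, beside 1.77% of all 27025 genes with a window), TGACG in 11 (25%, beside 19.8%) and CAGCTG in 14 (31.8%, beside 14.7%). The 86 windows of 44 genes are more per gene than the 32851 windows of 27025 genes, so for TGACGTCA and TGACG the share lay under that of all windows and over that of all genes. Each full element also holds the shorter core on both strands, and CAGCTG reads the same on both strands. The window with the full element lies before the first exon of Prkar1a-201, the transcript that was not called, and the window before Prkar1a-203 holds 1 shorter core. The window before Prkaca-201 holds 2 shorter cores, and a second Prkaca window further downstream holds 1 CAGCTG. The windows of Akap5 and Akap13 hold 1 CAGCTG each, and those of Akap6 and Adcy1 hold none of the 3 sequences. Other E-box sequences were not searched for and are not marked. Of the other 4 Prkar1a windows, 2 hold 1 CAGCTG each, 1 holds a shorter core and 1 holds none of the 3. The windows before Prkar1a-201 and Prkar1a-203, the first of Prkaca and those of Akap5 and Akap6 are printed 5′ to 3′ on the plus strand, which is the coding strand of all 4 genes, in lower case with the matches in capitals (CGTCA is TGACG on the other strand). The window of Prkar1a-203 ends 42 bases before the annotated start, and that of Prkar1a-201 leaves out 28 bases that GENCODE places in an exon. A match is a description of letters, and binding was not measured.
Prkaca (chr8:83972728-83972977): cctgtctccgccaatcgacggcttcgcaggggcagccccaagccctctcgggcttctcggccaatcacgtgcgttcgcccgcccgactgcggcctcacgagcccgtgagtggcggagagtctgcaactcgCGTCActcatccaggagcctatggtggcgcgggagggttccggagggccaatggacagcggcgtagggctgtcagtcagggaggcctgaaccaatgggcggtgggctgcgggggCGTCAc
Prkar1a before Prkar1a-203 (chr11:109649113-109649362): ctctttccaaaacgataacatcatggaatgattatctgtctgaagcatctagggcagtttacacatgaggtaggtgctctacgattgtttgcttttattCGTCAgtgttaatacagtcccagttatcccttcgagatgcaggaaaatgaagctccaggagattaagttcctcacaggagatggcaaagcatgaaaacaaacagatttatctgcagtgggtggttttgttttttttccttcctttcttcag
Prkar1a before Prkar1a-201 (chr11:109650699-109650920): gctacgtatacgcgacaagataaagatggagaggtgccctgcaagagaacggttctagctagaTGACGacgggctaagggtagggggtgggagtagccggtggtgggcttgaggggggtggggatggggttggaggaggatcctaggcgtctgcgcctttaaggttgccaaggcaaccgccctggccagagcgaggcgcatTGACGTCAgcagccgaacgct
Akap5 (chr12:76324641-76324890): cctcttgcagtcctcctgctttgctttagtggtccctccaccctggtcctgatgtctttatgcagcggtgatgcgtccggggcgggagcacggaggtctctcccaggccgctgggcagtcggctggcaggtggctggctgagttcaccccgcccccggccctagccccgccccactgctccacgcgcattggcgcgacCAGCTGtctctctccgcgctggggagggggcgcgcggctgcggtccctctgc
Akap6 (chr12:52699133-52699382): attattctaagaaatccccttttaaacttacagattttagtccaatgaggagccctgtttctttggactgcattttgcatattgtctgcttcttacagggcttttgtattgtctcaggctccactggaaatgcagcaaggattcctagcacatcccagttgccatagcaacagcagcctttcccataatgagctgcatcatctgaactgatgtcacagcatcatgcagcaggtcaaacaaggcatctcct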

How the data were processed

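Per the labels' protocols, polyadenylated RNA (RNeasy extraction) was made into libraries by the TruSeq Stranded mRNA protocol. Per the submitters' processing notes, bcl2fastq 2.19, Trimmomatic 0.36, kallisto 0.44, edgeR 3.28 and the build GRCm38.p6 were used by the authors; the kallisto options, the transcript annotation and the use of strand are not given in the sources used here. Each library's deposited table lists 121843 transcripts, with an estimated count and a TPM value for each, per the file headers.

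Transcripts were joined to genes with GENCODE M21 (GRCm38); 739 without a match, 0.1996% to 0.4941% of a library's counts, were left out. Estimated counts were summed per gene and rounded, and tested with edgeR 4.0.16 in R 4.3.3. Genes passing filterByExpr (minimum count 10, minimum total 15) entered 1 fit over the 9 libraries with TMM scaling, and each pair of groups was compared by the two-sided quasi-likelihood F test, with adjustment by Benjamini and Hochberg over all tested genes. SE was derived from the log2 fold change and the F statistic (the absolute change over the root of F). CPM uses effective library sizes, ± values of levels are SD over 3 libraries, and intervals and floors cover counting error only. Since the labels do not name separate cultures, the p-values cover the spread between libraries, and that spread may be technical. The pipeline was tested on simulated counts with a common spread and no shared replicate effect. That test does not cover the replicate pattern of these data.

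Earlier results of these data were known when the genes, the related lists and the markers were chosen. The rule for the families themselves used gene symbols only. The rule for genes given in every library took those called in any comparison with at least 1 CPM in a group, and the 6 kinase subunits; of each related list it took up to 3 genes of smallest adjusted p in the more frequent direction and 1 in the other. Uncalled genes were otherwise given by highest mean TPM. Adcy9, Akap9, Akap11 and Pde9a were given because leaving out 1 library changed their call. Pde4a, Pde10a and those among the other observations were chosen after their values were seen. Pairing was checked by the correlation of deviations from the group means. Equal replicate numbers correlated at 0.632 to 0.729 in MEF and MyoD, and at 0.101 to 0.151 in MEF and F/R/C, all over the limit of 0.1 for pairs. Between MyoD and F/R/C the values were 0.0837 to 0.164, not all over that limit. The main fit paired no libraries, and the replicate number entered only the alternative with the replicate block. Alternatives were the tool DESeq2 1.42.0, DESeq2 size factors within edgeR, scaling by totals, no filter beyond 1 count, a mean CPM of at least 1, 2 groups alone, counts rebuilt from TPM, protein-coding transcripts only, the replicate block, each library left out, and replicate 3 of MEF and of MyoD left out together (chosen after seeing the data).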

Additional observations from a re-analysis of the deposited data

How the results depend on the processing

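No log2 fold change of the 18 called genes, Prkar1b or Prkar2b reversed under any alternative run. With each library left out in turn, 480 of 540 log2 fold changes of these genes stayed on their side of the threshold. Of the rest, 53 lost their call and 7 gained one. Under the other alternatives 567 of 595 stayed, 15 lost and 13 gained. Leaving out 1 library gave 4 to 10 genes called higher and 4 to 9 lower in F/R/C against MEF, 3 to 10 and 1 to 6 against MyoD, and 0 in MyoD against MEF. For transcripts it gave 3 to 9 higher and 0 to 6 lower against MEF, 1 to 8 and 0 to 1 against MyoD, and 0 higher and 0 to 1 lower in MyoD against MEF. With DESeq2, 1 gene was called higher in MyoD against MEF, as were 1 transcript higher and 1 lower; 10 transcripts were called lower against MEF, and 13 higher and 5 lower against MyoD. On counts rebuilt from TPM, 5 genes were called higher against MEF, and with a mean CPM of at least 1, 10 transcripts were called higher against MyoD. Without replicate 3 of MEF and of MyoD together, 1 gene was called higher in MyoD against MEF and 11 in F/R/C against MyoD. The cause of these changes was not tested.

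In the fit with the replicate block, 9 genes came out higher and 9 lower against MEF, and 7 and 7 against MyoD (40% and 31.1% of the 45 genes, beside 43.8% and 40.3% of all tested genes in that fit). There, 1 transcript was called lower against MyoD in place of 2. In MyoD against MEF the block called none of the 45 genes, and 0.0827% of all tested genes, all higher. Against MyoD, where the numbers were not taken as pairs, the block added Pde8a (adjusted p = 0.019); equal numbers correlated better than unequal ones in those libraries. Beyond the calls given in the report, the block changed no call of a gene named there. Scaling by total counts alone moved the median of all genes in F/R/C against MyoD by -0.19 (log2), and every other scaling moved the medians by 0.1 or less. Depth limits Adcy8 in the F/R/C libraries (0 to 6 counts), Pde2a in the MEF libraries (0 to 1 count) and the 9 untested genes, of which 7 had 3 counts or fewer in every library. TPM of single transcripts also rests on how kallisto divides shared reads.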

Other observations

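Several genes of these families differed more between replicate numbers than between groups, and the third MEF and the third MyoD library shared the high values. Pde8b, which encodes a cAMP-specific phosphodiesterase, was at 0.372, 0.564 and 22.1 CPM in MEF, at 0.313, 1.13 and 58.9 CPM with MyoD and at 9.06, 8.48 and 8.93 CPM with F/R/C. The F/R/C libraries were nearly alike while the other groups spanned a wide range, and no comparison called the gene. Pde3a, which encodes a cGMP-inhibited phosphodiesterase, was at 1.81, 11.7 and 124 CPM in MEF, at 3.98, 9.86 and 58.7 CPM with MyoD and at 13.6, 19.4 and 15.9 CPM with F/R/C. Pde1b, a relative of Pde1a, was at 2.28, 1.61 and 10.8 CPM in MEF, at 1.66, 1.55 and 18.7 CPM with MyoD and at 2.1, 1.37 and 1.58 CPM with F/R/C. For all 3 the F/R/C libraries lay within the range of the MEF and MyoD libraries or at its lower end.

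Akap12, which encodes the anchor gravin, was low in the first library of both fibroblast groups, at 8.51 CPM in MEF replicate 1 and 5.28 CPM in MyoD replicate 1, against 54.6 and 101 CPM in the other MEF libraries and 86.3 and 68.5 CPM in the other MyoD libraries. Pde1c, another calcium-dependent phosphodiesterase gene, was instead highest in the second library of each of the 3 groups, at 9.7, 12 and 4.47 CPM. Neither gene was called in any comparison.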
